A study of Homo sapiens with 9 samples.

Results

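APOE, the gene of apolipoprotein E, was measured by 1 row of the array table, and all 9 arrays gave it a value. It is 1 of 14812 genes that could be named, and it was selected as a reported target of miR-199a in metastatic melanoma, at a time when earlier results of these data were known. The arrays came from WM266-4 cells carrying GFP, an established human line from a melanoma metastasis, 48 h after lipofection. Of the 3 groups of 3 arrays, described by the labels as biological triplicates, one received a mimic of miR-199a-3p at 0.5 nM, another the same mimic at 0.25 nM, and the controls a control microRNA at 0.5 nM. All groups therefore share the line, the GFP and the transfection reagent, and no control was transfected at 0.25 nM.

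Apolipoprotein E is a secreted protein that carries lipids and is taken up through receptors of the low-density lipoprotein receptor family. In melanoma it is known as a brake on metastasis: secreted by the tumour cells, it was reported to act through LRP1 on the melanoma cells themselves and through LRP8 on endothelial cells. A microRNA lowers a transcript by pairing its seed with a site in that transcript, and miR-199a-3p, miR-199a-5p and miR-1908 were reported to act together on APOE and on the chaperone gene DNAJA4 in metastatic melanoma. The comparison thus asks whether a mimic of 1 of these microRNAs, given alone, was accompanied by less APOE transcript.

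The mature sequences of these microRNAs, from RefSeq (GRCh38.p14), are shown because the study transfected a mimic of only the first. Capitals mark the seed, bases 2 to 8 from the 5′ end. Those of miR-199a-3p lie at chr19:10817429-10817450 (gene MIR199A1) and chr1:172144554-172144575 (MIR199A2), of miR-199a-5p at chr19:10817469-10817491 and chr1:172144592-172144614, and of miR-1908-5p at chr11:61815209-61815229, all on the minus strand.
hsa-miR-199a-3p: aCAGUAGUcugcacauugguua
hsa-miR-199a-5p: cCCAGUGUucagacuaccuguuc
hsa-miR-1908-5p: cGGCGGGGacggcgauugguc
No seed is shared among them. The seeds of miR-199a-3p and miR-199a-5p have the same base at 3 of their 7 positions, and those of miR-199a-3p and miR-1908-5p at 1. The product of a further gene, hsa-miR-199b-3p, has the same sequence as miR-199a-3p.

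Values are log2 intensities, so a difference of 1 is a doubling. Intensities of different genes come from different probes and are not compared as amounts of RNA. Array medians over all 44629 rows ran from 4.94 to 5.21, and the median gene lay 0.10 higher at 0.5 nM and 0.14 higher at 0.25 nM than in control. Each array was therefore shifted to the same median over genes, and values on this shifted scale are given unless the deposited scale is named. All 8 measured melanocyte lineage markers exceeded the median gene's level of 6.25, from MLANA at 8.17 to TYR, tyrosinase, at 12.76. The same was true of 2 of 5 macrophage markers (CD68 at 9.64 and TYROBP at 6.31), 1 of 6 hepatocyte markers (TF, transferrin, at 10.78), 0 of 2 fibroblast markers and 0 of 5 keratinocyte markers.

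As deposited, APOE read 8.41 on each of the 3 control arrays, 8.62, 8.61 and 8.57 at 0.5 nM, and 8.24, 8.44 and 8.40 at 0.25 nM. Every 0.5 nM array lay above control, while the 0.25 nM arrays lay on both sides of it. On the shifted scale the control arrays stood at 8.50, the 0.5 nM arrays at 8.62, 8.60 and 8.56, and the 0.25 nM arrays at 8.18, 8.36 and 8.32. The groups then no longer overlapped: 0.5 nM was highest, control lay between, and 0.25 nM was lowest. The share of all genes whose groups do not overlap was not counted. The mean was 8.50 ± 0 (SD, n = 3) in control, 8.59 ± 0.032 (n = 3) at 0.5 nM and 8.29 ± 0.095 (n = 3) at 0.25 nM. In bulk RNA, less APOE per cell and fewer cells that express it cannot be told apart.

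**Figure D1:**
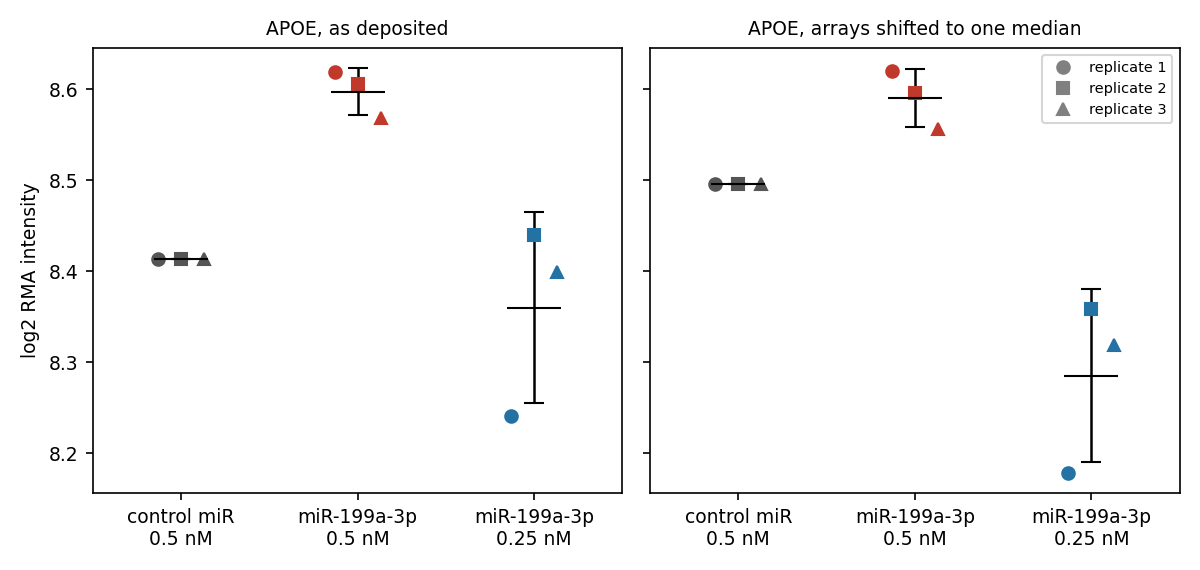
APOE log2 RMA intensity on each of the 9 arrays (points, with the marker giving the replicate number), with the group mean (horizontal line) and SD (bars), as deposited on the left and with arrays shifted to one median on the right. The 0.5 nM arrays lie above the control arrays, which are equal, on both scales; the 0.25 nM arrays lie around control as deposited, at 8.24 to 8.44, and below it after the shift, at 8.18 to 8.36.

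The control SD of 0 is not a measure of biological constancy. All 3 control arrays carry the same APOE value to the last deposited digit, as do 47.2% of genes in control, 46.6% at 0.5 nM and 45.1% at 0.25 nM, while no gene has an equal value on arrays of different groups. The spread within a group is therefore small, and 63.0% of genes passed limma at 0.5 nM and 64.1% at 0.25 nM. The sources used here do not say whether the groups were normalized and summarised apart, and this was not tested. If they were, every SE and adjusted p that rests on the spread within groups understates the error, and a difference between groups can include the processing. Differences of a single dose, and between doses, are given by limma with a mean per group, whose error is that spread. Control against both doses was also tested at group level, by limma on the 3 group means, whose error for APOE comes from the distance between the doses and from genes of similar intensity. The single-dose and between-dose differences have no such test.

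At 0.5 nM the APOE difference from control was 0.10 ± 0.044 (SE), or 1.07-fold, with a 95% interval from -0.01 to 0.20, and it did not pass (limma adjusted p = 0.10). On the deposited scale it was 0.18 ± 0.049 and passed as higher (limma adjusted p = 0.0150), and it also passed at 0.12 after quantile normalization over the 9 arrays (limma adjusted p = 0.0129). It passed once more, at an unchanged 0.10, without replicate 1 of the 0.25 nM group (limma adjusted p = 0.00473), where its SE was 0.019; the other alternatives gave 0.04 to 0.11 and did not pass. No setting put APOE below control at 0.5 nM. In this comparison 63.0% of all genes passed, 33.2% as higher and 29.8% as lower, so a call here does not set APOE apart. On the deposited scale 65.1% passed, 45.0% as higher and 20.1% as lower.

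At 0.25 nM APOE lay at -0.21 ± 0.044 (SE) from control, or 0.865-fold, with a 95% interval from -0.31 to -0.11 (limma adjusted p = 0.00433). The 3 same-numbered differences were -0.32, -0.14 and -0.18. With the deposited values the difference was -0.054 ± 0.049 and did not pass (limma adjusted p = 0.372). Of the 17 alternatives, 16 passed as lower, with differences from -0.25 to -0.16, and the deposited scale was the exception. Of all genes, 64.1% passed in this comparison, 30.3% as higher and 33.9% as lower; with the deposited values 67.8% did, 50.7% as higher and 17.1% as lower. The control had received 0.5 nM of small RNA and these cells 0.25 nM, so the mimic and the dose of small RNA cannot be told apart here.

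Between the doses APOE was 0.30 ± 0.044 (SE) higher at 0.5 nM than at 0.25 nM, or 1.24-fold, with a 95% interval from 0.20 to 0.41 (limma adjusted p = 0.000624). The same-numbered differences were 0.44, 0.24 and 0.24. This was the APOE difference that held on either scale, at 0.24 with the deposited values (limma adjusted p = 0.00499), and it passed in all 17 alternatives, at 0.24 to 0.34. Here too 62.2% of all genes passed, 35.1% as higher and 27.1% as lower, although both groups received the same mimic; with the deposited values 62.7% passed.

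**Figure D2:**
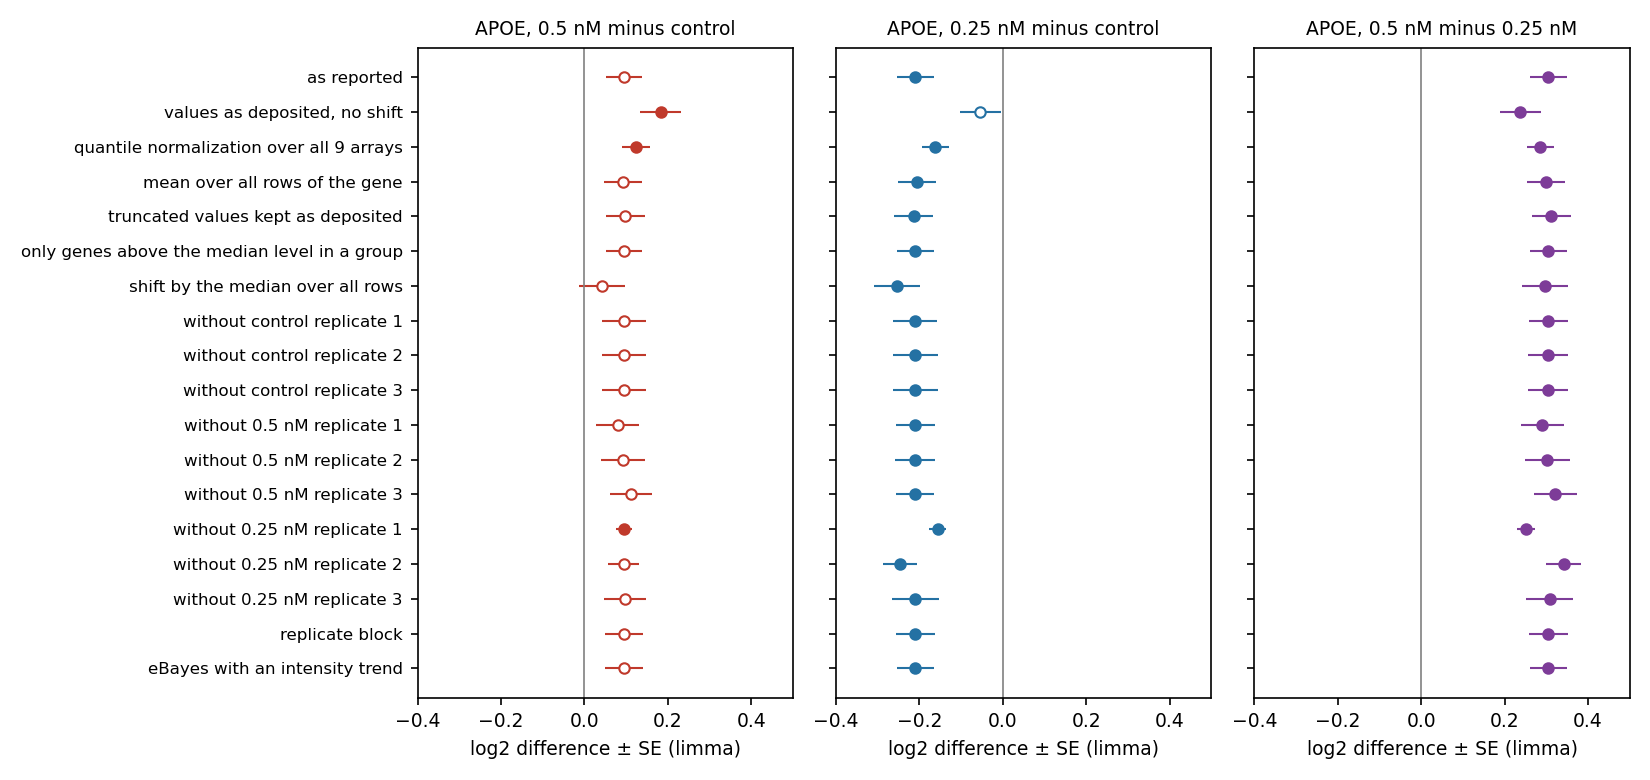
APOE log2 difference (x axis, with the limma SE as bars) in each of 3 comparisons, as reported in the top line and under 17 alternative settings below it; filled points have an adjusted p under 0.05 and open points do not. The 0.5 nM difference stays at or above 0.04, the 0.25 nM difference runs from -0.25 to -0.05, and the difference between the doses from 0.24 to 0.34.

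On the group-level test APOE lay -0.06 ± 0.15 (SE) from control on the mean of both doses, with a 95% interval from -0.37 to 0.25, or 0.776-fold to 1.19-fold (limma adjusted p = 0.989, unadjusted p = 0.707). A fall to below 0.776-fold or a rise above 1.19-fold thus lies outside the interval, and smaller changes do not. The direction itself depended on the scale: with the deposited values the difference was 0.07 (limma adjusted p = 0.932), and over 16 alternatives it ran from -0.11 to 0.07 with no adjusted p under 0.932. Of all genes 18 passed this test, 0.122%. The exact two-sided permutation test of the 3 control arrays against the 6 mimic arrays gave p = 0.571 over 84 splits. With the deposited values this permutation test gave p = 0.405, and its smallest possible p is 0.0119. It treats the arrays as separate samples and pools both doses, although the control values are tied. It therefore cannot decide whether APOE changed. Each pair of groups, which cannot go below an exact permutation p of 0.1, reached 0.1 on the shifted scale; with the deposited values 0.25 nM against control gave 0.7.

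The APOE differences were set against those of genes of its intensity. Among 1720 genes within 0.5 log2 units of the APOE level, APOE included, 59.0% lay further from 0 at 0.5 nM and 29.2% at 0.25 nM, and the SD over these genes was 0.19 and 0.21. Between the doses fewer, 10.6%, lay further from 0, at an SD over genes of 0.19. On the mean of both doses 74.0% did.

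**Figure D3:**
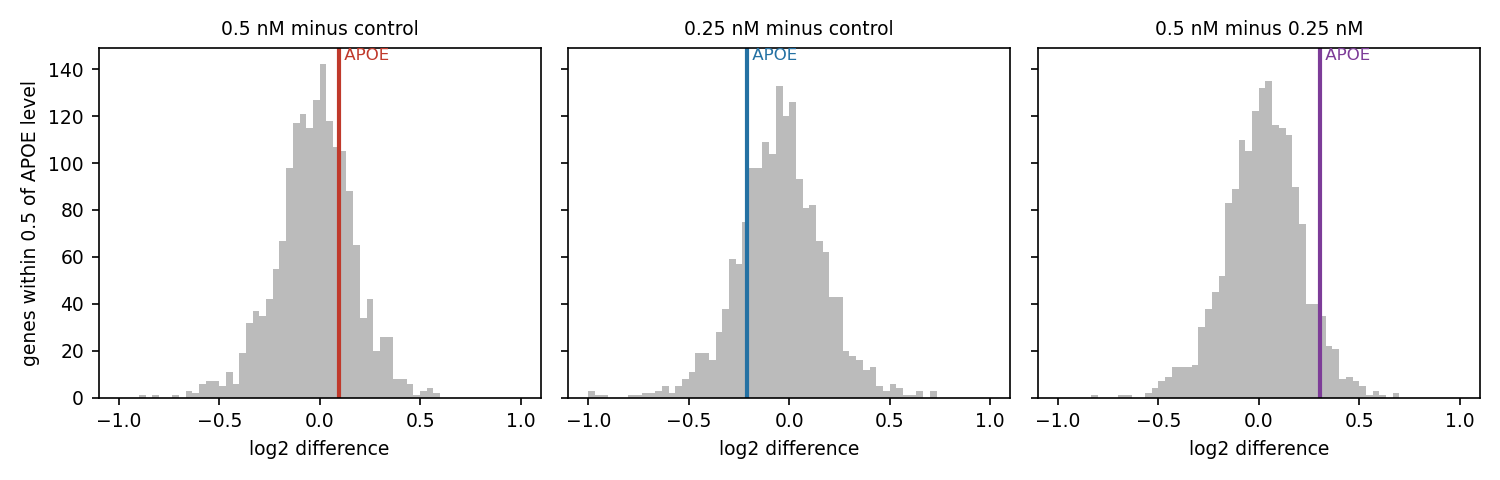
Number of genes (y axis) by log2 difference (x axis, values beyond 1 drawn at the edge) among the 1720 genes within 0.5 log2 units of the APOE level, in 3 comparisons, with APOE as a vertical line. APOE lies at 0.10, -0.21 and 0.30, inside the distribution in each comparison and nearest to its edge between the doses.

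LRP1, the receptor through which apolipoprotein E was reported to act on melanoma cells, was the other measured gene of the melanoma circuit. It read 8.06, 7.79 and 7.76 in control, 8.0, 7.99 and 7.68 at 0.5 nM, and 8.09, 7.90 and 7.90 at 0.25 nM, so that the groups overlapped. Its differences from control were 0.02 ± 0.12 (SE) at 0.5 nM and 0.09 ± 0.12 at 0.25 nM, which did not pass (limma adjusted p = 0.898 and 0.523). The group-level limma adjusted p of LRP1 was 0.991. DNAJA4, LRP8 and the liver X receptor genes NR1H2 and NR1H3 have no named row here and were not analysed. Among reported miR-199a-3p targets, 15 of 18 were measured; 3 were higher and 5 lower at 0.5 nM, and 4 were higher and 7 lower at 0.25 nM, or 7 and 1, and 5 and 3, with the deposited values. The shares past the threshold were 53.3% and 73.3%, against 63.0% and 64.1% of all genes. Deposited values gave 45.0% of all genes higher and 20.1% lower at 0.5 nM, and 50.7% and 17.1% at 0.25 nM. Of the 15, 13 lay above the median level. Among 7810 genes above it in a group, tested alone, 4071 and 4218 passed. None of the 15 passed the group-level test. APOE was itself the median of these 15 at 0.25 nM, at -0.21, and its 0.10 stood above their median of -0.07 at 0.5 nM. Over all genes the medians were 0.01 and -0.02. The microRNA genes give no check of the mimic. MIR199A1 lay at 3.13 and MIR199B at 2.69, both far below the median level. MIR199A1 differed from control by 0.33 and -0.42, passing in opposite directions (limma adjusted p = 0.00277 and 0.000733). MIR199B differed by -0.52 and -0.14, and only the first passed (limma adjusted p = 0.000186 and 0.0747). Neither passed the group-level test (limma adjusted p = 0.995 and 0.966).

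APOE lies on chromosome 19 in a gene cluster, preceded by BCAM, NECTIN2 and TOMM40 and followed by APOC1, APOC4 and APOC2. Of 9 genes of this stretch 6 were measured. At 0.5 nM 0 were higher and 3 lower, and at 0.25 nM again 0 and 3, or 0 and 1, and 1 and 2, with the deposited values. That is 50.0% of the 6 at each dose, against 63.0% and 64.1% of all genes. However, 5 of the 6 lay above the median level, where genes passed less often. Of 7810 genes above it in a group, tested alone, 4071 and 4218 passed. As lower alone, 29.8% and 33.9% of all genes passed, or 20.1% and 17.1% with the deposited values. With the replicate number as a block, 4 were lower at 0.5 nM and 5 at 0.25 nM, beside 4625 and 5331 of all 14812 genes. The median difference was -0.13 at 0.5 nM and -0.23 at 0.25 nM.

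APOC1, the apolipoprotein gene next to APOE, read 10.89, 10.57 and 10.57 in control, 10.64, 10.30 and 10.32 at 0.5 nM, and 10.61, 10.28 and 10.27 at 0.25 nM. Replicate 1 was the highest array of every group, and within each number both doses lay below control. Its differences of -0.26 ± 0.15 (SE) and -0.29 ± 0.15 did not pass (limma adjusted p = 0.165 and 0.121). Blocking on the replicate number made both pass (limma adjusted p = 1.42e-05 and 9.38e-06). Leaving out replicate 1 of the 0.25 nM group moved that dose to -0.40 (limma adjusted p = 0.0495). APOC1 did not pass the group-level test (limma adjusted p = 0.652). APOE thus lay above control at 0.5 nM where APOC1 lay below it; the difference between these genes was not tested.

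TOMM40, which encodes the import channel of the outer mitochondrial membrane, read 10.26, 10.63 and 10.71 in control, 10.28, 10.61 and 10.52 at 0.5 nM, and 10.23, 10.43 and 10.43 at 0.25 nM. Here replicate 1 was the lowest array of every group, the reverse of APOC1. The differences of -0.06 and -0.17 did not pass (limma adjusted p = 0.712 and 0.316), nor did TOMM40 at group level (limma adjusted p = 0.966). At 0.25 nM TOMM40 passed with the block (limma adjusted p = 0.0436) and, at -0.31, without control replicate 1 (limma adjusted p = 0.0471).

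NECTIN2, a cell adhesion molecule, read 7.08, 7.08 and 7.21 in control. The 0.5 nM arrays read 7.03, 7.0 and 7.0, and the 0.25 nM arrays 6.70, 6.68 and 6.68. Only for the shifted scale can it be said here that the groups did not overlap in NECTIN2. It was lower by limma at both doses, at -0.12 ± 0.035 (SE) and -0.44 ± 0.035 (limma adjusted p = 0.0198 and 1.84e-05). The 0.5 nM call was lost without 0.5 nM replicate 2 or replicate 3 (limma adjusted p = 0.0575 and 0.0585) and with the deposited values, at -0.029 (limma adjusted p = 0.490). NECTIN2 did not pass the group-level test (limma adjusted p = 0.911). BCAM, another adhesion molecule, lay at -0.13 and -0.31, and RELB, a subunit of NF-kB, at -0.18 and -0.10, both lower by limma at either dose and not in the group-level test (limma adjusted p = 0.966 and 0.977). RELB turned to 0.049 at 0.25 nM with the deposited values, and BCAM, at -0.044, no longer passed at 0.5 nM. CLASRP, at 0.11 and -0.06, did not pass; its control arrays ranged from 6.73 to 7.37.

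**Figure D4:**
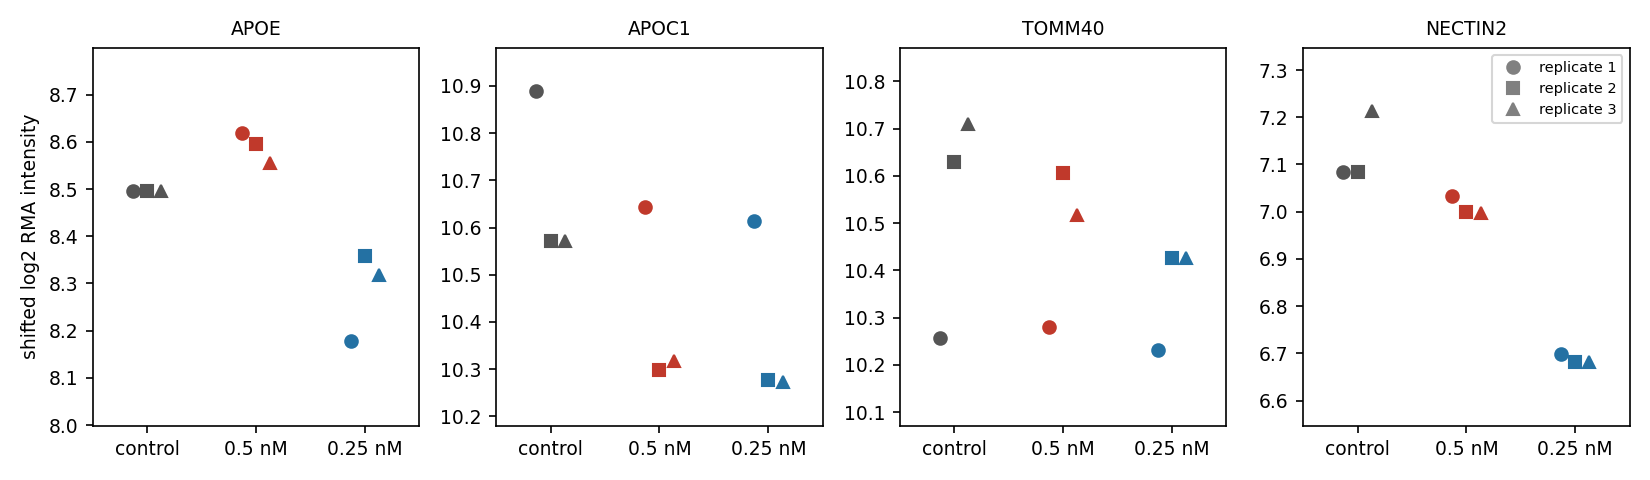
Shifted log2 RMA intensity on each array (y axis, the same span of 0.8 units in each panel) for APOE and 3 genes beside it on chromosome 19, by group (x axis) and replicate number (marker). APOC1 is highest and TOMM40 lowest in replicate 1 of every group, while APOE is highest in replicate 1 at 0.5 nM and lowest in replicate 1 at 0.25 nM.

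Of 17 other apolipoprotein genes 11 were measured, and 1 of them, APOD, lay above the median level. At 0.5 nM 5 were higher and 5 lower, and at 0.25 nM again 5 and 5; the deposited values gave 5 and 3, and 9 and 2. The share was 90.9% at each dose, against 63.0% and 64.1% of all genes. Genes above the median level passed less often than all genes, at 4071 and 4218 of 7810 tested alone. The shares of all genes are therefore no like measure for a list that is dim but for APOD. Deposited values gave 45.0% of all genes higher and 20.1% lower at 0.5 nM, and 50.7% and 17.1% at 0.25 nM. None of the 11 passed the group-level test. APOD, a lipocalin known to rise in cells that stop dividing, read 10.43 on each control array, 10.62, 10.61 and 10.65 at 0.5 nM, and 10.73 on both usable arrays at 0.25 nM. Its differences were 0.20 ± 0.014 (SE) and 0.30 ± 0.015, higher by limma at both doses (limma adjusted p = 2.71e-05 and 5.88e-06) and not in the group-level test (limma adjusted p = 0.742). APOB, the structural protein of low-density lipoprotein, lay 0.69 and 0.14 above control, and APOA4 lay at -0.41 and -0.66; neither gene passed the group-level test (limma adjusted p = 0.938 and 0.820). The signal of APOB (mean level 4.40) and APOA4 (5.39) was low, as was that of APOA1, a protein of high-density lipoprotein (5.66). APOA1 lay at 0.68 and -0.13, the second turning to 0.021 with the deposited values.

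Of 20 receptors and binding proteins of apolipoprotein E, 16 were measured. At 0.5 nM 2 were higher and 2 lower, and at 0.25 nM 4 were higher and 2 lower. The deposited values gave 4 and 1, and 9 and 0. Of all genes they gave 45.0% higher and 20.1% lower at 0.5 nM, and 50.7% and 17.1% at 0.25 nM. The block gave 5 and 3 at each dose, beside 5093 and 4625, and 4645 and 5331, of all 14812 genes. The shares of 25.0% and 37.5% lay below those of all genes, 63.0% and 64.1%. However, 14 of the 16 lay above the median level, where genes passed less often. Of 7810 genes above that level in a group, tested alone, 4071 passed at 0.5 nM and 4218 at 0.25 nM. LRP6, a Wnt co-receptor of the same family, lay at 0.07 and 0.08, and the heparan sulfate proteoglycan SDC4 at -0.02 and -0.10. Neither passed at either dose (limma adjusted p = 0.379 and 0.301, and 0.916 and 0.458). With the deposited values LRP6 passed at 0.25 nM, at 0.23 (limma adjusted p = 0.0132), and SDC4 passed at neither dose. LRPAP1, the chaperone that keeps these receptors from binding ligand inside the cell, lay at 0.15 ± 0.091 (SE) and 0.32 ± 0.091. It was higher at 0.25 nM (limma adjusted p = 0.0178), a call lost without 0.25 nM replicate 2 or replicate 3 (limma adjusted p = 0.0579 and 0.0555). With the replicate number as a block LRPAP1 passed at 0.5 nM too (limma adjusted p = 0.00146, and 7.90e-05 at 0.25 nM). It did not pass the group-level test (limma adjusted p = 0.892). LRP4, a receptor at the neuromuscular junction, lay at 0.28 and 0.17 and was higher at both doses (limma adjusted p = 2.63e-07 and 5.25e-06). Its control arrays were tied, with an SD of 0, and its SE was only 0.011 at either dose. LRP4 did not pass the group-level test (limma adjusted p = 0.962).

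APOE is itself a target of the liver X receptors, and 7 of 19 genes of that programme were measured. At 0.5 nM 0 were higher and 5 lower, and at 0.25 nM 1 was higher and 5 lower, against 2 and 4, and 2 and 1, with the deposited values. The shares of 71.4% and 85.7% stand beside 63.0% and 64.1% of all genes, of which 29.8% and 33.9% were lower. These all-gene shares are no like measure, since 6 members were brighter than the median gene. Bright genes passed less often: a test restricted to 7810 of them called 4071 at 0.5 nM and 4218 at 0.25 nM. On the deposited scale 45.0% of all genes were higher and 20.1% lower at 0.5 nM. At 0.25 nM 50.7% were higher and 17.1% lower. None of the 7 passed the group-level test. SCD, the stearoyl-CoA desaturase, read 12.45, 12.42 and 12.42 in control, 12.27, 12.06 and 12.14 at 0.5 nM, and 12.16 and 11.98 on the usable arrays at 0.25 nM. It was lower at both doses, at -0.27 ± 0.066 (SE) and -0.36 ± 0.074 (limma adjusted p = 0.0113 and 0.00535), also with the deposited values (limma adjusted p = 0.0472 and 0.0430), but not in the group-level test (limma adjusted p = 0.481). PLTP, the phospholipid transfer protein, lay at -0.15 at both doses, and LPL, lipoprotein lipase, at -0.14 and -0.15; with the deposited values they lay at 0.0042 and 0.0015 at 0.25 nM and did not pass there. At group level they did not pass (limma adjusted p = 0.951 and 0.979). LPCAT3, a lysophospholipid acyltransferase, lay at -0.13 and -0.04, the second call being lost without 0.25 nM replicate 3, at -0.03 (limma adjusted p = 0.141), and turning to 0.11 with the deposited values. FASN, fatty acid synthase, lay at -0.10 and 0.07, passing in opposite directions; with the deposited values it lay at -0.0083 and 0.22, and the first did not pass.

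Of 16 genes that handle lipoproteins and cholesterol esters 7 were measured. At 0.5 nM 0 were higher and 4 lower, and at 0.25 nM 1 and 4, or 0 and 4, and 1 and 1, with the deposited values. The shares were 57.1% and 71.4%, against 63.0% and 64.1% of all genes, and 4 of the 7 lay above the median level. Deposited values gave 45.0% of all genes higher and 20.1% lower at 0.5 nM, and 50.7% and 17.1% at 0.25 nM. LPL and PLTP, lower at both doses, were also counted in the liver X receptor list above. One of the lower genes, ACAT1, is a mitochondrial thiolase of ketone body and isoleucine metabolism and does not handle lipoproteins or cholesterol esters, which SOAT1 forms. Without it, a choice made after its values were seen, 0 of 6 were higher and 3 lower at 0.5 nM, and 1 higher and 3 lower at 0.25 nM. ACAT1 read 7.73, 7.70 and 7.70 in control, 7.41, 7.26 and 7.26 at 0.5 nM, and 7.07, 7.05 and 7.05 at 0.25 nM. It was lower at both doses, at -0.40 ± 0.040 (SE) and -0.65 ± 0.040 (limma adjusted p = 7.44e-05 and 4.39e-06), on the deposited scale too (limma adjusted p = 0.000306 and 2.17e-05). It did not pass the group-level test (limma adjusted p = 0.451), the lowest value among the 46 measured genes of these 6 lists. None of the 46 passed that test, and 4 had an unadjusted p under 0.05, as did 965 of all 14812 genes. By limma with the error within groups, 24 of the 46 passed at 0.5 nM and 29 at 0.25 nM. That is 52.2% and 63.0%, against the 63.0% and 64.1% of all genes given above. Since 30 of these 46 were brighter than the median gene, the shares of all genes are no like measure here either.

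**Figure D5:**
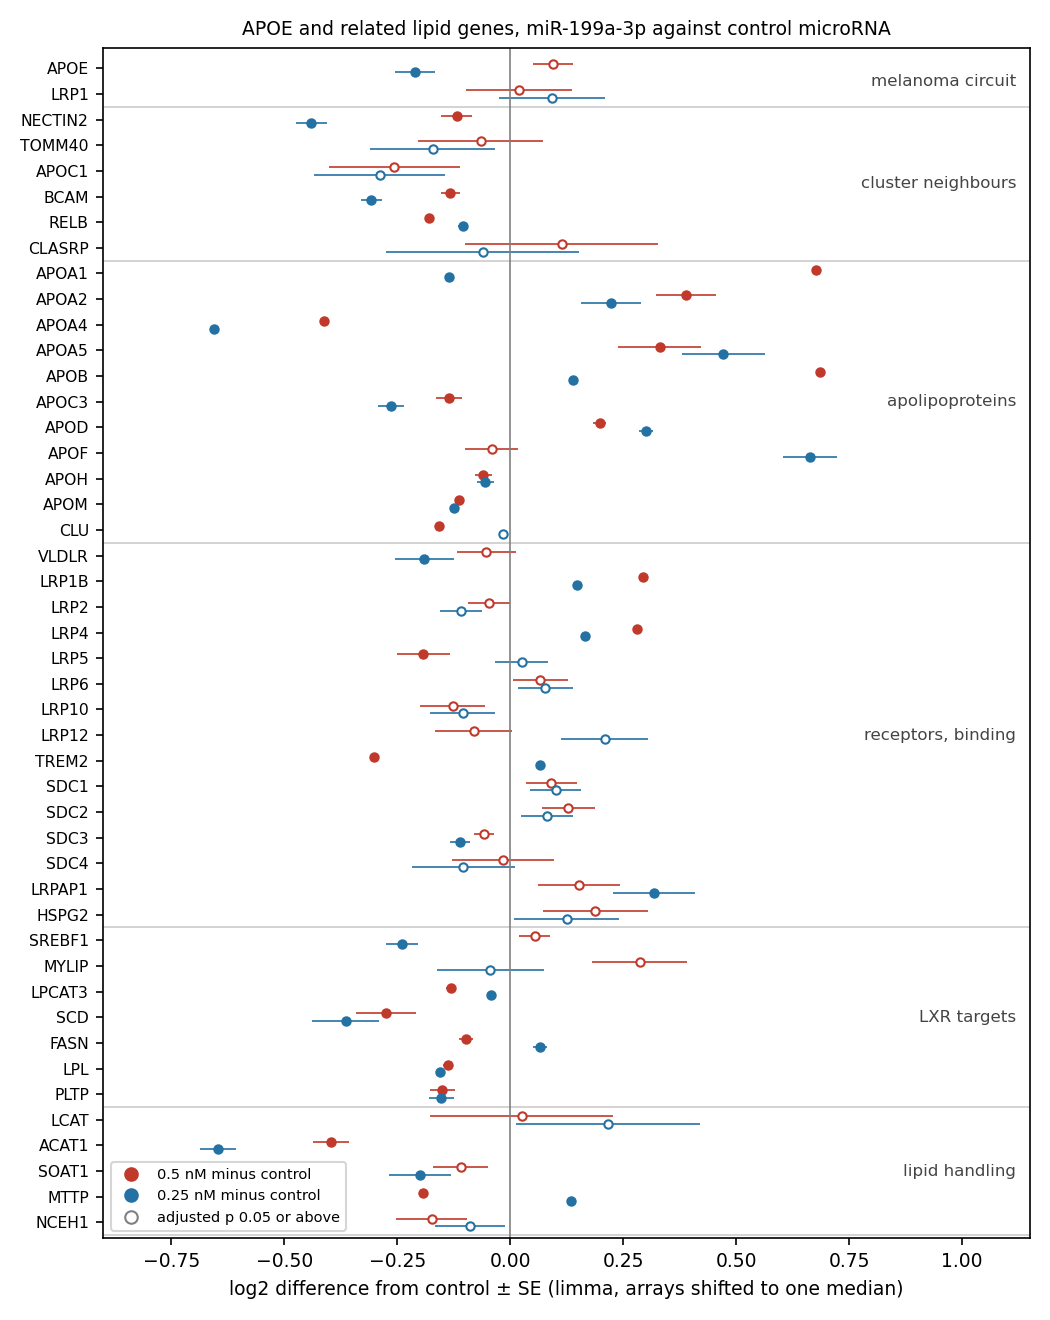
Log2 difference from control (x axis, with the limma SE as bars; some bars are smaller than the point) at 0.5 nM (red) and 0.25 nM (blue) for APOE and the measured genes of the 6 lists around it (y axis), with arrays shifted to one median; open points did not pass. APOE has its doses on opposite sides of control, at 0.10 and -0.21, while ACAT1, SCD, APOA4 and NECTIN2 lie below control at both doses.

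The genes whose pattern over the 9 arrays was most like that of APOE were sought among 5957 genes above the median level with a value on every array. The highest Pearson correlations were those of CFAP119 (0.99), PHF5A, a splicing factor subunit (0.99), ZFP62 (0.99), TM7SF3 (0.99) and EYA3 (0.99). On the deposited scale they were 0.98 or above except for TM7SF3, at 0.79. The lowest were those of LNX2 (-0.98), MBP (-0.98), NSG1 (-0.97), PPIB, a peptidyl-prolyl isomerase of the endoplasmic reticulum (-0.97), and CAMTA2 (-0.97). With the deposited values these ran from -0.73 for CAMTA2 to -0.48 for PPIB. The 9 points of each pair share their arrays, the shift and the ties within groups, so that 3 group levels fix most of each value.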

How the data were processed

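The authors deposited log2 intensities from whole-transcript arrays. Per the submitters' processing notes they used oligo, affy and RMA. No version, step order or genome build was given in the sources used here. The platform table names 1 gene for 15835 rows and leaves 28794 unnamed. The brightest row per gene was kept. In replicate 3 of the 0.25 nM group zeros after the decimal point were dropped (0 values there have 0 as first decimal, against 4178 to 4774 elsewhere), so values under 10 digits in it were left out (19.1% of genes; the APOE value stayed). Arrays were shifted to one median over genes. Tests used limma 3.58.1 in R 4.3.3, two-sided; p-values were adjusted over 14812 genes (Benjamini-Hochberg) and passed under 0.05; the group-level test used an intensity trend. Both were run on simulated data, which checked the size of planted differences and set no limit on false calls. Unlike the tied genes here, every simulated gene varied within its group. Signals are intensities, so precision rests on 3 arrays per group; where nothing else separates replicates, p-values measure only the spread between these samples. Same-numbered arrays deviated together (correlations of deviations across genes 0.14 to 0.59 in all 9 pairs), so the replicate number was tried as a block. Other alternatives were the deposited scale, quantile normalization, the mean of rows, kept truncated values, a filter on dim genes, an intensity trend and each array left out. Named genes are APOE, the circuit and cluster lists in full and, of the other lists, some of the 4 brightest and 4 most changed; markers are given by level. Gene order came from RefSeq (GRCh38.p14). The gene and the lists were chosen with earlier results of these data known.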

Additional observations from a re-analysis of the deposited data

Results flagged for a closer look

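APOE differed between the doses of the same mimic, by 0.30 (0.5 nM minus 0.25 nM; limma adjusted p = 0.000624), higher at 0.5 nM in 3 of 3 same-numbered pairs. Between the same groups 9211 of 14812 genes passed, and 50 of the 85 measured members of the 12 gene lists. All 3 are flagged because groups given the same agent differed by a test of the difference itself, with the spread within groups as its error.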

How the results depend on the processing

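With the deposited values APOE moved to 0.18 at 0.5 nM and -0.054 at 0.25 nM. At 0.5 nM it also passed with quantile normalization (0.12) and without replicate 1 of 0.25 nM; leaving out 1 array gave 0.080 to 0.11. The block changed no APOE call: with it, limma adjusted p was 0.130 at 0.5 nM and 0.0115 at 0.25 nM. The group-level count of 18 genes was 0 with the deposited values, with quantile normalization and without a trend. It was 39 with the mean of rows, 35 with truncated values kept, 37 with bright genes only, 60 with the shift by the median of all rows (chosen after seeing the data), and 0 to 45 leaving out 1 array: 0 without 0.25 nM replicate 1, 7 without 0.5 nM replicate 1. The shift over all rows passed 2 list members. Bright genes alone gave 4071, 4218 and 3908 of 7810 genes (0.5 nM, 0.25 nM, between doses). List members passing were 22, 31 and 24, out of fewer than 85, because the filter left dim members out too. By mean level over all arrays, 53 of the 85 lay above the median. The filter's own number of members was not counted, so no share can be set against that of all genes. With the deposited values calls turned in RELB (0.049), APOA1 (0.021), APOM (0.031) and LPCAT3 (0.11) at 0.25 nM; LPL (0.0015) and PLTP (0.0042) changed sign and lost theirs. Between doses APOM (-0.056), LPL (-0.051) and PLTP (-0.066) changed sign and gained a call. So did APOM with quantile normalization (-0.062) and the mean of rows (-0.033), while MYLIP (-0.031) lost its call with truncated values kept. The cause was not tested. The correlations with APOE on deposited values were also added after seeing the data. The genes passing went from 4918 higher and 4418 lower to 6663 and 2975 at 0.5 nM, and from 4483 and 5015 to 7516 and 2531 at 0.25 nM.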
